A study of Mus musculus with 8 samples.

Results

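Cells of 8 cortical cell types that carried the same name at P1 and at P7 (postnatal days 1 and 7) were compared between these ages in a single-cell RNA-seq series of mouse cortex. A cell was included if its deposited cell type had cells at both ages. The types were callosal projection neurons (CPN), layer IV neurons, subcerebral projection neurons (SCPN), corticothalamic projection neurons (CThPN), interneurons named CGE and Sst, oligodendrocyte precursor cells (OPC) and astrocytes. These types held 48559 of the 51024 cells kept at both ages, and the whole series held 60989 cells. All 28537 cells kept at P1 and 20022 of the 22487 kept at P7 (89.0%) were of the 8 types. The remaining P7 cells carried names not used at P1, namely the interneuron names MGE (1521 cells), Npy (501) and Vip (252), committed oligodendrocyte precursors (COP, 107) and pericytes (84).

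All mice were wild type, of the C57BL/6 strain, and the somatosensory and motor cortex was taken. Each library pooled tissue of several animals. The sort for live cells took events stained by Vybrant DyeCycle Ruby that excluded DAPI. The labels also describe sorting tdTomato-labelled projection neurons, while glia and interneurons were present in each library here. P1 had 3 libraries, from 3 different collection days by their titles, and P7 had 2 libraries that share a collection day. Libraries are named here by the number behind each cell barcode, 3, 4 and 5 at P1 and 1 and 2 at P7. Whether the P7 libraries are independent samples is not stated, so age and collection day cannot be told apart, and p-values cover the spread between these libraries only.

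The libraries held 8557 to 11310 kept cells and 42395848 to 58553300 unique molecular identifiers (UMIs, each marking 1 captured transcript). The authors thinned the libraries to a like coverage per cell, so that UMIs per cell compare types and libraries after that step and are not amounts of RNA. Any pair of libraries shared 104 to 170 cell barcodes, which was 1.22% to 1.83% of the smaller library over the 10 pairs. The deposited table of cells holds no expression values, so the type names could not be checked against marker genes. The types differed widely in cell number, from 14615 CPN to 756 CGE cells at P1 and from 9230 CPN to 107 OPC at P7. Of the others, layer IV neurons numbered 4578 and 2717, SCPN 888 and 314, CThPN 3249 and 5178, Sst cells 1880 and 1078, and astrocytes 949 and 1131 at P1 and P7. CGE cells numbered 267 at P7, and OPC 1622 at P1.

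In the first postnatal week cortical neurons extend axons and dendrites, while synapse formation is under way. CPN connect the hemispheres, layer IV neurons receive thalamic input, SCPN send axons to the brainstem and spinal cord, and CThPN send axons to the thalamus. Interneurons are the inhibitory cells of local circuits, and the names CGE (caudal ganglionic eminence) and Sst (somatostatin) refer to a place of origin and to a neuropeptide. OPC give rise to the myelin-forming cells and go on dividing after birth, and astrocytes multiply and grow processes in the same period. The number of genes detected in a cell rises with its UMIs, so genes per cell were also read at a matched number of UMIs. The mitochondrial share is the share of a cell's UMIs from genes of the mitochondrial genome, and is used both as a sign of cell quality and as a feature that differs between cell types.

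The depth per cell differed between the ages in opposite directions in different types. Sst interneurons had more UMIs and more genes per cell at P7. OPC had fewer UMIs per cell at P7, and library medians of astrocytes lay lower for UMIs and for genes. CPN and CThPN medians lay higher at P7, and layer IV, SCPN and CGE medians overlapped between ages. Over the 8 types, P7 libraries all lay above the P1 libraries in 3 types for UMIs (37.5%) and in 3 for genes (37.5%), and all lay below in 2 types for UMIs (25%) and in 1 for genes (12.5%). With 3 and 2 libraries there are 10 assignments to ages, and the smallest p of the two-sided exact permutation test is 0.1, so no single type can reach 0.05. The types were therefore also fitted together in limma, which estimates a common spread and called 1 type higher (12.5%) and 1 lower (12.5%) for UMIs, and 1 higher (12.5%) and 0 lower (0%) for genes. Without library 3, limma called 4 types higher and 2 lower for UMIs, and without library 5 it called 2 higher for UMIs and 2 higher for genes, CPN being the added type in both (adjusted p = 0.0143 for genes in limma). At an unadjusted limma p under 0.05 the counts were 3 higher and 1 lower for UMIs, 2 higher and 0 lower for genes, and 0 lower for genes at matched UMIs and the mitochondrial share.

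Sst cells had medians of 1868, 1618 and 1922 genes in the P1 libraries 3, 4 and 5, and of 2578 and 2615 in the P7 libraries 1 and 2. Both P7 values lay far above the P1 range. Their UMI medians were 3975, 3135 and 3901.5 at P1 and 5966 and 6091 at P7. Genes per cell were thus 44.4% higher at P7 (95% interval 23.1% to 69.5%, adjusted p = 0.00814 in limma) and UMIs 65.2% higher (32.9% to 105%, adjusted p = 0.0103 in limma). With the P7 libraries averaged and counted as 1, a limma fit chosen after the data were seen, the adjusted p in limma was 0.0674 for genes and 0.0547 for UMIs. The call for genes was also lost without library 1 or library 2, and that for UMIs without library 2. The Sst name may not cover like cells at the ages, since P7 had a separate MGE name, and joining MGE to Sst left a log2 difference in genes of 0.43, against 0.53 for Sst alone.

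OPC had medians of 3398, 3670 and 3397 UMIs at P1 and of 2786 and 2727 at P7, without overlap. UMIs per OPC were lower at P7 (a change of -20.9%, 95% interval -31.8% to -8.27%, adjusted p = 0.0327 in limma). Genes per OPC overlapped between ages, at 1564.5, 1784 and 1682 at P1 and 1473 and 1614 at P7. The P7 medians rest on 53 and 54 OPC. With COP joined to OPC the log2 difference in UMIs was -0.09 in place of -0.34, and with the P7 libraries averaged or without library 1 or 2 the call in limma was lost (adjusted p = 0.297 when averaged).

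CPN had medians of 1691, 1839.5 and 2083 genes at P1 and of 2336 and 2388 at P7. The P7 values were above all P1 values, and the P1 libraries spread by nearly as much as the ages differed. CPN genes per cell were 26.7% higher at P7 (6.82% to 50.3%, adjusted p = 0.0546 in limma), which did not pass, with UMI medians of 3588, 3856 and 4656.5 against 5223 and 5411. CThPN medians were closer together, at 1908, 1821 and 1849 genes at P1 and 2072.5 and 2114 at P7, again without overlap. The difference was 12.6% (-0.289% to 27.1%, adjusted p = 0.141 in limma), and UMI medians were 3915, 3450 and 3582 against 4342.5 and 4493. The CThPN difference depended on which cells were counted. Its log2 value of 0.17 was 0.04 with equal weight per subcluster and 0.03 among cells with at least 1500 genes, and the CPN value of 0.34 was 0.18 among such cells. The log2 difference in CThPN UMIs, 0.28, was 0.033 with equal weight per subcluster.

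Astrocyte medians were 1525, 1683 and 1568 genes at P1 and 1402.5 and 1422 at P7, so both P7 values were below the P1 values. The change was -11.2% (-22.2% to 1.33%, adjusted p = 0.141 in limma), with UMI medians of 3051.5, 3283 and 3071 against 2779.5 and 2878. Its direction depended on the weight of small cells. With equal weight per subcluster the log2 difference turned to 0.39 for genes and 0.55 for UMIs, and among cells with at least 1500 genes to 0.27 and 0.30. Cells under 1200 genes, near the authors' minimum of 1000, made up 7.41% ± 4.84 (SD, n = 3) of P1 astrocytes and 32.1% ± 0.227 (SD, n = 2) of P7 astrocytes. They made up 5.91% ± 4.51 (SD, n = 3) and 15.8% ± 6.40 (SD, n = 2) of OPC. The part of cells lost below that minimum in these medians was not tested.

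The remaining types overlapped between ages. Layer IV neurons had 1554, 2036.5 and 1890 genes at P1 and 1727 and 1777 at P7, with UMI medians of 3189, 4409 and 3951 against 3162 and 3350. SCPN had 2149, 2281 and 2552 genes at P1 and 2317 and 2365 at P7, and CGE cells 2113, 1412.5 and 1796 against 1835 and 2068. The limma intervals of the change in genes were -21.2% to 18.1% for layer IV, -13.8% to 17.9% for SCPN and -15.4% to 46.4% for CGE cells, so differences of these sizes were not detectable with 5 libraries. The P1 spread of CGE cells moved with their makeup. A P1 subcluster of 309 CGE cells with a median of 2706 genes made up 69.4%, 26.9% and 36.3% of CGE cells in libraries 3, 4 and 5, and the medians of the 3 others were 1303.5 to 1459 genes.

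The order of the types changed with these shifts. SCPN, the large deep-layer neurons, had the highest median of UMIs and of genes in each P1 library, and Sst cells had it in both P7 libraries. The highest type had 1.61 to 1.91 times the UMIs of the lowest type at P1 and 2.15 to 2.23 times at P7. Within a library the depth of the library cancels, so each type was also set against the mean of the 8 types of its own library. On that scale Sst cells rose by 0.62 in log2 UMIs (adjusted p = 0.00105 in limma) and by 0.42 in log2 genes (adjusted p = 0.00814 in limma). OPC fell by 0.44 in log2 UMIs (adjusted p = 0.0134 in limma), which makes 1 type higher (12.5%) and 1 lower (12.5%) for UMIs and 1 higher (12.5%) and 0 lower (0%) for genes. With the P7 libraries averaged, limma called 0 types for either measure on that scale, and 1 type each at an unadjusted p under 0.05. With all types weighted alike, the mean over types was 7.54% higher at P7 for UMIs and 7.81% higher for genes (p = 0.2 in the exact permutation test for both).

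**Figure D1:**
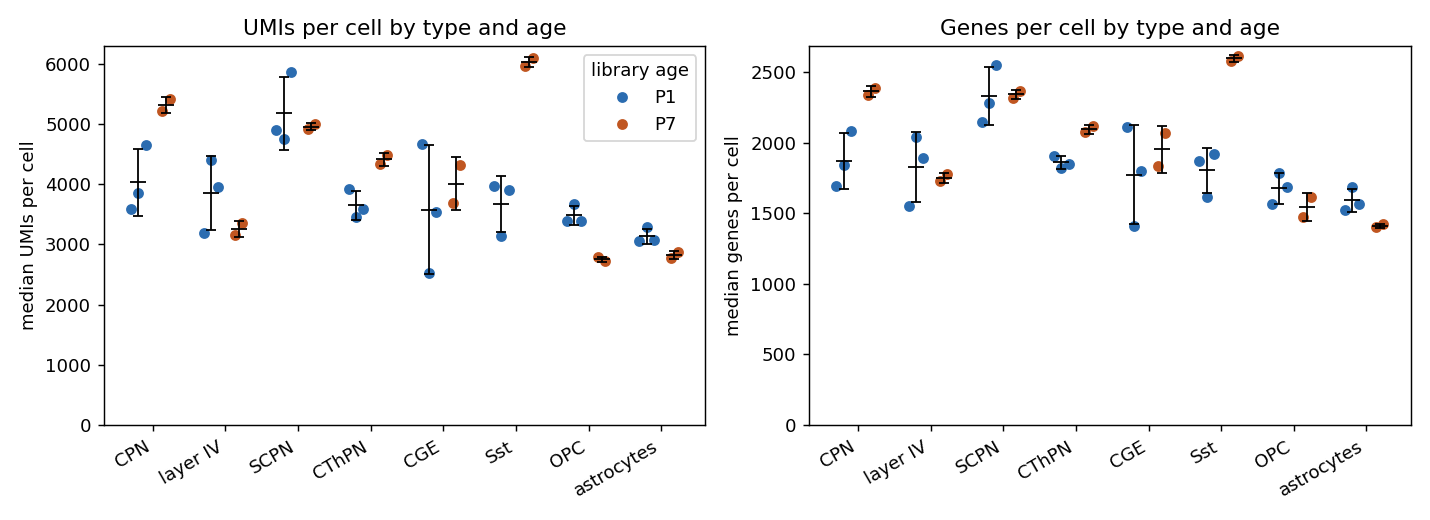
Median UMIs per cell (left) and median genes per cell (right) of 8 cell types, with each point 1 library (3 at P1, 2 at P7) and black bars for the mean and its SD. Sst cells sit at 2578 and 2615 genes in the P7 libraries and at 1922 or fewer at P1, while both P7 astrocyte points, at 1402.5 and 1422, are below all P1 points.

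The spread of UMIs among cells of a type also differed between ages, a measure chosen after the data were seen. It was taken as the interquartile range of log2 UMIs in a library. It was narrower at P7, without overlap, in 4 of the 8 types (50%) and wider in 2 (25%). In SCPN it went from 1.32 ± 0.166 (SD, n = 3) to 0.486 ± 0.115 (SD, n = 2), and in Sst cells from 1.09 ± 0.0717 to 0.575 ± 0.0560. It went from 0.990 ± 0.135 to 0.618 ± 0.0520 in CPN and from 1.04 ± 0.122 to 0.596 ± 0.0273 in CThPN. Astrocytes moved the other way, from 0.731 ± 0.102 to 1.08 ± 0.0814, as did OPC, from 0.827 ± 0.0675 to 0.947 ± 0.0717. The exact permutation test cannot pass for any of them (smallest p 0.1, reached by SCPN, CThPN, Sst cells and astrocytes). SCPN cells with over 10000 UMIs made up 16.4% ± 3.82 (SD, n = 3) of the P1 SCPN and 3.52% ± 0.641 (SD, n = 2) of the P7 SCPN.

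At a matched number of UMIs, most types had more genes per cell at P7. The value is the number of genes at 4000 UMIs, read from a straight line of log genes on log UMIs over the cells with 2000 to 8000 UMIs of each library and type. P7 lay above P1 in 6 of the 8 types (75%) and below in 0 (0%), and limma called 5 higher (62.5%) and 0 lower (0%). The called types were OPC, layer IV neurons, SCPN, CPN and Sst cells. The mean over types was 4.65% higher at P7 (p = 0.1 in the exact permutation test, the smallest it allows). Of the 8 types, OPC had the greatest difference, and CThPN and astrocytes overlapped between ages.

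OPC had 1770, 1876 and 1868 genes at 4000 UMIs in the P1 libraries and 2075 and 2110 in the P7 libraries. The gap between the groups was wider than the range within either age. The increase was 13.9% (9.50% to 18.4%, adjusted p = 3.61e-06 in limma). It held with the P7 libraries averaged (adjusted p = 0.00306 in limma) and without any single library. Only 36 and 33 P7 OPC had 2000 to 8000 UMIs, against 463 to 531 in the P1 libraries. Of the bins of 500 UMIs from 2500 to 6000 UMIs, 2 held at least 5 OPC in every library, both below 4000 UMIs. With COP, the next stage of the lineage, joined to OPC, the log2 difference was 0.08 in place of 0.19, still without overlap.

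Layer IV neurons had 1814, 1903 and 1907 genes at 4000 UMIs at P1 and 2007 and 2000.3 at P7, an increase of 6.92% (2.80% to 11.2%, adjusted p = 0.00704 in limma). SCPN had 1863, 1989 and 1969 against 2068 and 2045, an increase of 6.01% (1.93% to 10.3%, adjusted p = 0.0139 in limma). In both types the P7 libraries agreed closely and library 3 was the low P1 value. CPN had 1822, 1889 and 1873 against 1958 and 1959, an increase of 5.24% (1.19% to 9.45%, adjusted p = 0.0259 in limma). Sst cells had 1865, 1942 and 1915 against 2003 and 1994, an increase of 4.79% (0.760% to 8.98%, adjusted p = 0.0342 in limma). Without matching, the increase in Sst cells was 44.4%. At 6000 UMIs, near the Sst medians of 5966 and 6091 UMIs at P7, their log2 difference was 0.033 (p = 0.3 in the exact permutation test). At 4000 UMIs the log2 difference was 0.068, and with MGE joined to Sst it was 0.042 (p = 0.2 in the exact permutation test). CGE cells, at 1887, 1941 and 1933 against 1964 and 1963, did not overlap either, but the difference of 2.25% did not pass (-1.68% to 6.34%, adjusted p = 0.338 in limma).

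CThPN gave 1915.5, 2002 and 1974 genes at 4000 UMIs at P1 and 1960.0 and 1960.1 at P7, inside the P1 range. The limma interval of the change was -4.01% to 3.82%. Astrocytes gave 1854, 1934 and 1902 at P1 and 1888 and 1866 at P7, with an interval of -4.82% to 2.95%. Astrocytes at P7 gained genes faster with UMIs, with a slope of log genes on log UMIs of 0.816 ± 0.00497 (SD, n = 2) against 0.736 ± 0.0298 (SD, n = 3) at P1 (p = 0.2 in the exact permutation test). The ages therefore crossed, with log2 differences of -0.05 at 3000 UMIs and 0.03 at 6000 UMIs. The P7 astrocyte line ran over 2 subclusters, with medians of 2464.5 and 6699 UMIs and with 1819 and 2045 genes at 4000 UMIs. P1 astrocytes were in 1 subcluster, and the part of this makeup in the slope was not tested. In Sst cells and layer IV neurons the slope was lower at P7, at 0.642 ± 0.00246 (SD, n = 2) against 0.701 ± 0.0187 (SD, n = 3) and at 0.659 ± 0.00825 (SD, n = 2) against 0.702 ± 0.0134 (SD, n = 3).

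Library 3 had the fewest genes at 4000 UMIs of the P1 libraries in all 8 types. For this measure limma used 1 spread for all types, which share their libraries, so its p-values take deviations that a library has in common for independent ones. The same holds for the mitochondrial share, where library 4 was the highest P1 library in 7 of 8 types. With the P7 libraries averaged, or with library 1 or library 2 left out, 1 type was called, OPC. Without library 5, 3 types were called, and without library 3 there were 5 higher and 1 lower, the astrocytes.

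**Figure D2:**
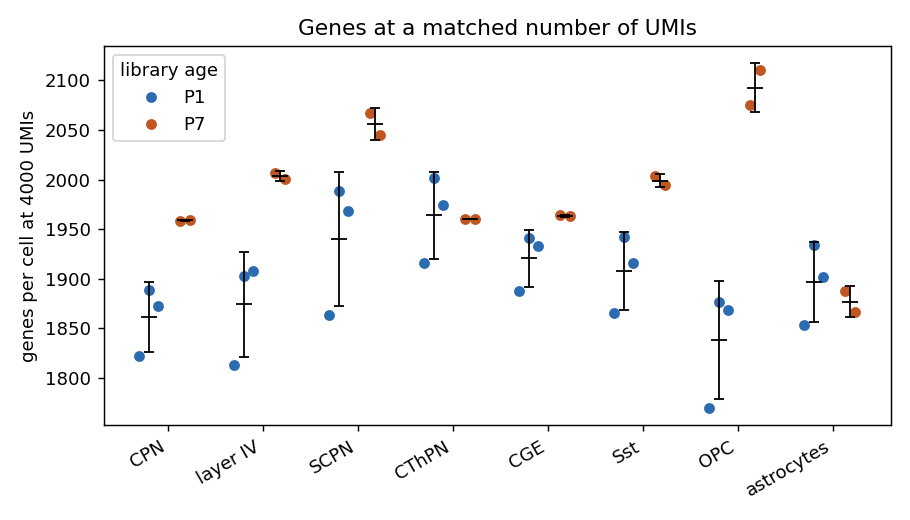
Genes per cell at 4000 UMIs in 8 cell types, with each point 1 library (3 at P1, 2 at P7) and black bars for the mean and its SD; the vertical axis does not start at 0. OPC move from 1770 to 1876 genes at P1 to 2075 and 2110 at P7, and the CThPN points of P7 are inside the P1 range.

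Each type was again set against the mean of the 8 types in its library, a scale on which some types must fall where others rise. OPC rose by 0.12 in log2 genes at 4000 UMIs relative to that mean (adjusted p = 1.01e-11 in limma) and layer IV neurons by 0.03 (adjusted p = 0.00381 in limma), which is 2 of 8 types (25%). CThPN fell by 0.07 (adjusted p = 2.78e-07 in limma), astrocytes by 0.08 (adjusted p = 2.25e-08 in limma) and CGE cells by 0.03 (adjusted p = 0.00242 in limma), 3 of 8 types (37.5%). These 5 calls held with the P7 libraries averaged, with an adjusted p in limma of 0.0372 or lower. The exact permutation test gave 0.1 for each of the 5, the smallest it allows. On this scale too limma used 1 spread for all types, for genes per cell and the mitochondrial share as well. Centring on the library mean also ties the types to each other, so these limma p-values take tied values for independent ones. Set against the mean of the 7 types other than OPC, chosen after the data were seen, 4 of the 5 calls held in limma, and that of CGE cells was lost (adjusted p = 0.0808). CPN, SCPN and Sst cells were then called higher as well, which gave 5 types higher and 2 lower.

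The order of the types at 4000 UMIs changed accordingly. CThPN came first in each of the 3 P1 libraries and sixth in both P7 libraries. OPC came last in each P1 library and first in both P7 libraries. SCPN were second by mean at either age, at 1940 and 2056 genes. In the P7 order CGE cells, CThPN and CPN lay within 5 genes of each other, at 1964, 1960.1 and 1959, and layer IV neurons and Sst cells were at 2004 and 1999. Neighbours among SCPN, CGE and Sst cells changed places between P1 libraries, and so did layer IV neurons with astrocytes or CPN.

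**Figure D3:**
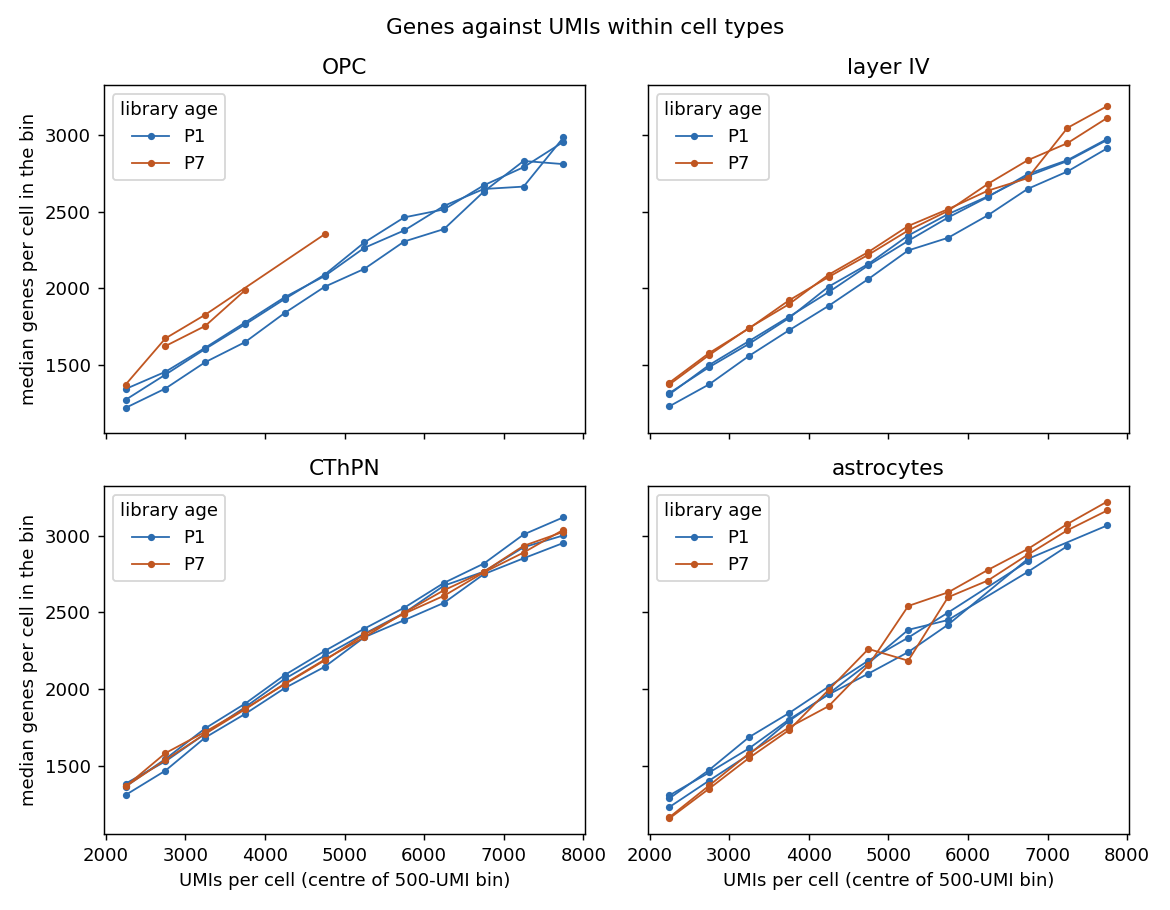
Median genes per cell (vertical axis) in bins of 500 UMIs (horizontal axis, centre of the bin) for OPC, layer IV neurons, CThPN and astrocytes, with each line 1 library and only bins with at least 5 cells drawn. The P7 lines of OPC are short, from few bins, and run above the P1 lines wherever both are drawn. The P7 lines of CThPN lie within the range of the P1 lines in nearly all bins, and the astrocyte lines cross.

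The mitochondrial share was higher at P7 in every one of the 8 types. The P7 libraries lay above all P1 libraries in 8 of 8 types (100%), below in 0 (0%), and limma called 8 higher (100%) and 0 lower (0%). Averaged over types, the P1 share was 3.89% ± 0.229 (SD, n = 3) and the P7 share 5.06% ± 0.0661 (SD, n = 2), a difference of 1.17 percentage points (p = 0.1 in the exact permutation test, the smallest it allows). The types with the greatest differences were CPN and astrocytes.

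CPN had median shares of 3.97%, 4.32% and 3.58% in the P1 libraries and of 5.85% and 5.75% in the P7 libraries. The difference was 1.84 percentage points (1.35 to 2.34, adjusted p = 4.90e-07 in limma). Astrocytes had 3.37%, 3.0% and 3.20% at P1 and 4.67% and 4.72% at P7, a difference of 1.51 points (1.01 to 2.0, adjusted p = 6.74e-06 in limma). In both types the P7 libraries were within 0.2 points of each other and above the P1 values by more than the P1 spread.

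Among the other projection neurons, layer IV neurons had the highest share at P1. They had 4.68%, 5.07% and 4.95% at P1 and 5.84% and 5.61% at P7, a difference of 0.828 points (adjusted p = 0.00204 in limma). SCPN had 4.12%, 4.81% and 3.87% against 5.34% and 5.07%, a difference of 0.935 points (adjusted p = 0.000759 in limma). CThPN had 3.47%, 3.95% and 3.35% against 4.64% and 4.46%, a difference of 0.962 points (adjusted p = 0.000667 in limma). The gap between ages was narrowest in SCPN, where library 4 came within 0.3 points of library 2. The layer IV call in limma was lost without library 1.

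The interneurons and OPC had differences of like size. Sst cells had shares of 4.11%, 4.67% and 3.92% at P1 and of 5.50% and 5.25% at P7, a difference of 1.14 points (adjusted p = 0.000183 in limma). CGE cells had 3.48%, 3.66% and 3.37% against 4.50% and 4.54%, a difference of 1.02 points (adjusted p = 0.000456 in limma). OPC had 3.35%, 3.64% and 3.36% against 4.48% and 4.68%, a difference of 1.12 points (adjusted p = 0.000183 in limma). None of these 3 types overlapped between ages.

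Among cells with 3000 to 5000 UMIs all 8 types again had P7 above P1, with differences of 0.733 points in SCPN to 1.73 points in CPN. With the P7 libraries averaged, limma called 8 of 8 types. Among cells with a share under 5%, 6 of 8 types had P7 above P1 and the mean difference was 0.552 points in place of 1.17, with 0.470 in CPN and 0.187 in layer IV neurons. That limit removes cells by the value compared. The number of mitochondrial UMIs per cell, computed after the data were seen, lay higher without overlap in 4 types. It went from 168 ± 16.1 (SD, n = 3) to 303.5 ± 7.78 (SD, n = 2) in CPN and from 168 ± 3.79 to 321 ± 0.717 in Sst cells. In CThPN it went from 138 ± 10.0 to 199 ± 1.40, and in astrocytes from 106 ± 5.28 to 134 ± 8.11. It overlapped in the other 4, at 198 ± 34.6 against 185 in layer IV neurons, 228.5 ± 15.3 against 245 ± 11.3 in SCPN, 131 ± 42.2 against 178 ± 15.9 in CGE cells and 126 ± 12.97 against 129 ± 8.82 in OPC. Of these 4 types, the remaining UMIs per cell overlapped too in layer IV neurons, SCPN and CGE cells, and in OPC they lay lower at P7, at 2558 ± 10.2 against 3369 ± 127. Cell quality and a change in the cells cannot be told apart here.

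Within libraries, the CPN share rose by 0.67 points more than the mean of the types (adjusted p = 0.00316 in limma), the 1 type called higher (12.5%), with 0 lower (0%) and 1 lower at an unadjusted limma p under 0.05, layer IV neurons. This call was lost with the P7 libraries averaged (adjusted p = 0.0923 in limma). CPN were the fourth type in mitochondrial share in each P1 library and first in both P7 libraries, and layer IV neurons went from first to second. Cells with a share over 8%, below the authors' limit of 10%, were more frequent at P7 without overlap in 7 types. In layer IV neurons they went from 1.09% ± 0.223 (SD, n = 3) to 11.5% ± 2.88 (SD, n = 2), and in CPN from 1.41% ± 0.391 to 6.90% ± 0.657. Cells at or above 10% had been removed before deposit, so the P7 values are bounded by it.

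**Figure D4:**
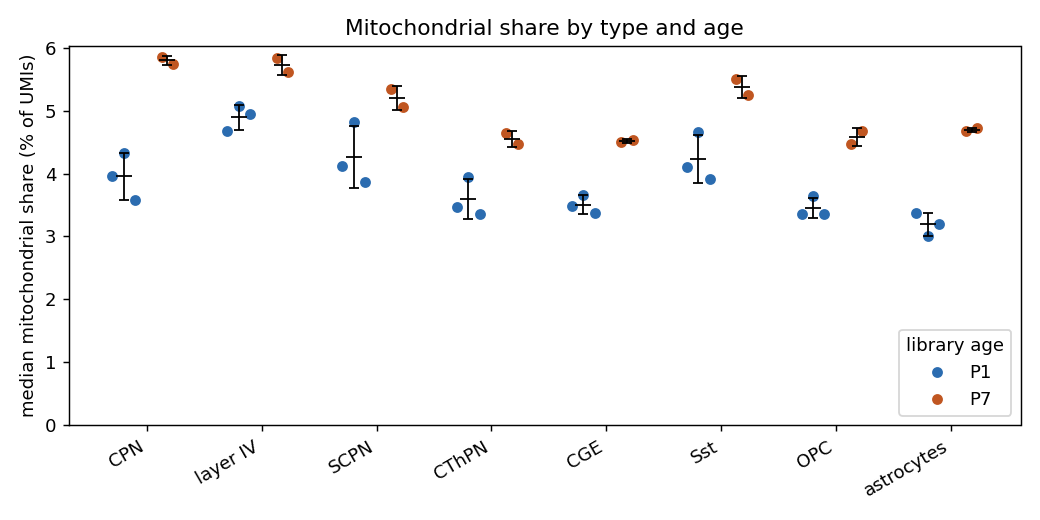
Median mitochondrial share of UMIs (percent) in 8 cell types, with each point 1 library (3 at P1, 2 at P7) and black bars for the mean and its SD. In every type both P7 points are above all P1 points, with CPN going from 3.58% to 4.32% at P1 to 5.75% and 5.85% at P7.

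Subclusters are the groups of cells as deposited. The authors clustered each age by itself and split some clusters of mixed identity, so a subcluster at P1 has no set partner at P7. They also joined pieces of 1 identity for later steps, but groups of 1 type, such as those of CGE cells at P1, are separate here. The 8 types held 20 subclusters at P1 and 19 at P7. Sst cells went from 1 to 3, CThPN from 3 to 4 and astrocytes from 1 to 2. CGE cells went from 4 to 1, SCPN from 2 to 1 and OPC from 2 to 1, while CPN had 6 and layer IV neurons 1 at both ages. The P7 interneurons held further names (MGE, Npy and Vip) and the P7 lineage of OPC held COP. Whether these names bear on the numbers was not tested. No test applies to the numbers, as clusters were defined per age.

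Weighted by their shares, the effective number of subclusters (the inverse Simpson index, per library) lay higher at P7 without overlap in 2 of the 8 types (25%) and lower in 3 (37.5%). It went from 1 to 2.45 ± 0.0716 (SD, n = 2) in Sst cells and from 1 to 1.55 ± 0.0243 (SD, n = 2) in astrocytes. It went from 3.05 ± 0.994 (SD, n = 3) to 1 in CGE cells, from 1.84 ± 0.215 to 1 in SCPN and from 1.98 ± 0.0173 to 1 in OPC. Sst cells, astrocytes, CGE cells, SCPN and OPC each had a single subcluster at 1 of the ages. There the number is 1 in every library, so the lack of overlap follows from the clustering per age and is not evidence from the libraries. CPN, at 3.49 ± 0.358 and 3.92 ± 0.163, and CThPN, at 2.05 ± 0.475 and 2.53 ± 0.0456, overlapped between ages. Without library 3 these latter types did not overlap, which gave 4 types with a higher number at P7.

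The subclusters within a type differed in depth, and the types differed in how. Medians of a subcluster pool its cells over all libraries of the age, unless a library is named. The astrocyte subcluster with 76.7% of the P7 cells had a median of 1272 genes and 2464.5 UMIs, and the other, with 23.3%, had 2907 genes and 6699 UMIs. The single P1 astrocyte subcluster lay between them, at 1574 genes. At 4000 UMIs the P7 pair stood at 1819 and 2045 genes and the P1 subcluster at 1902. The 3 Sst subclusters of P7 were alike in depth, at 2558 to 2634 genes, all above the 1825 of P1. The 4 CThPN subclusters of P7 had 1968 to 3264.5 genes, and the 3 of P1 had 1638.5 to 2791. The largest P1 subcluster of CThPN, with the 1638.5 genes, made up 42.5%, 73.9% and 70.5% of CThPN in libraries 3, 4 and 5.

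SCPN at P1 were in a deep subcluster of 528 cells with 2752.5 genes and a shallower one of 360 cells with 1837.5 genes. The single P7 subcluster was between them, at 2351. The pair made up different shares of the libraries, with the deeper one at 75.1%, 40.9% and 52.4% of SCPN in libraries 3, 4 and 5. The deeper subcluster itself differed between these libraries, with medians of 2262, 3425.5 and 3169 genes. OPC at P1 were in subclusters of 885 and 737 cells with mitochondrial shares of 3.82% and 2.85%, and the 107 OPC of P7 had 4.54%. CPN had 6 subclusters at either age, with medians of 1563 to 2482 genes at P1 and of 2090 to 3177 at P7. A CPN subcluster made up 37.9%, 11.8% and 37.5% of CPN in the P1 libraries, so makeup varied within P1 too.

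The mitochondrial difference was present in almost all subclusters. Of the 19 subclusters at P7, 18 had a median share above that of every P1 subcluster of their type, against 7 of 19 for genes per cell. The exception was a P7 CPN subcluster of 876 cells, which had the lowest share of the P7 subclusters of its type, 3.05%, and the highest UMI median, 9039.5. Its share was 2.98% in library 1 and 3.10% in library 2. The other CPN subclusters at P7 had medians of 4.79% to 6.07%, and the P1 CPN subclusters had 3.64% to 4.42%.

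**Figure D5:**
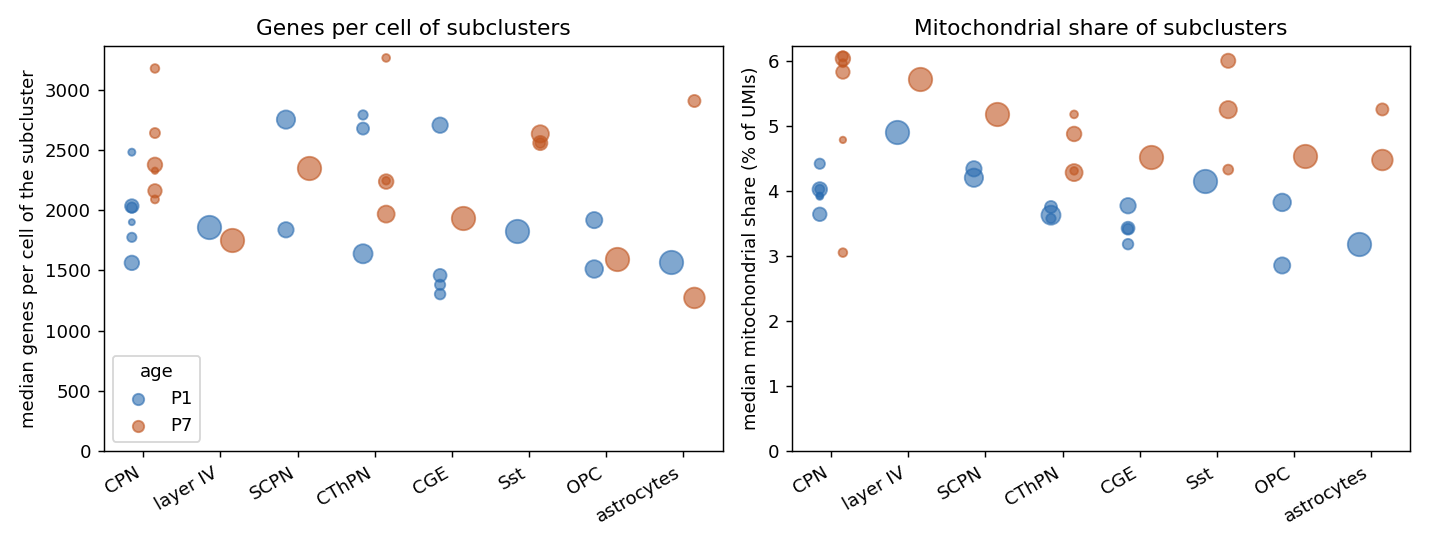
Median genes per cell (left) and median mitochondrial share in percent of UMIs (right) of each subcluster of 8 cell types, with 20 subclusters at P1 and 19 at P7; the area of a circle grows with the subcluster's share of its type's cells at that age. In the right panel 18 of the 19 P7 circles are above all P1 circles of their type, and the exception is a CPN subcluster at 3.05%.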

How the data were processed

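Cortical tissue of wild-type mice was dissociated, sorted for live cells and captured with 10x Genomics Chromium 3' chemistry. Per the labels and the study's methods, reads were aligned by the authors to build mm10 in Cell Ranger 3.0.1. They joined all libraries with thinning to a like coverage per cell, kept cells with 1000 to 6000 genes, no more than 15000 UMIs and under 10% mitochondrial UMIs, removed outlier clusters and named clusters from markers. In the deposited table, 0 cells lay outside these limits. The deposited UMIs per cell are counts, and the mitochondrial share was deposited as a fraction and multiplied into percent. The table also gave genes per cell, age, subcluster and cell type. The sources used here do not give a treatment of doublets, and none was called. No count matrix was used, so cells could not be thinned.

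Each library and type gave 1 median per measure. Genes at 4000 UMIs came from a least-squares line in cells with 2000 to 8000 UMIs. P7 and P1 libraries were compared by two-sided exact permutation tests over all 10 assignments, and by limma over the 8 types of a measure on log2 values (percentage points for mitochondrial share), with Benjamini-Hochberg adjustment over the 8 types and a threshold of 0.05. Percent changes are ratios of geometric means, and intervals are 95% limma intervals. In the main limma fit the prior degrees of freedom were infinite for genes at 4000 UMIs and mitochondrial share. In the fit relative to the mean of the 8 types they were infinite for genes per cell as well. All 8 types are named, and libraries were not matched to samples. Alternatives were means, other filters on cells, other ways of matching UMIs, broader names (COP with OPC, MGE with Sst, Npy and Vip with CGE, layer IV with CPN), equal weight per subcluster and leaving out each library. The types, measures and tests were chosen with earlier results of these data known. UMI spread, mitochondrial UMIs, cells near the limits, slopes, limma with averaged P7 libraries and the mean of types without OPC were added after the data were seen. The scripts were tested on simulated data. Versions were limma 3.58.1 in R 4.3.3 and, under Python 3.11.15, scipy 1.17.1, numpy 2.4.6, matplotlib 3.10.9 and pandas 2.3.3.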

Additional observations from a re-analysis of the deposited data

Results flagged for a closer look

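For several measures, every P7 library lay above every P1 library in some types and below in others. For UMIs per cell, the P7 minus P1 difference of mean library medians was 1283.5 in CPN, 768.75 in CThPN and 2358 in Sst cells, against -731.8 in OPC and -306.4 in astrocytes. For genes per cell it was 490.8 in CPN, 233.9 in CThPN and 793.8 in Sst cells, against -179.75 in astrocytes. For the interquartile range of log2 UMIs it was 0.12 in OPC and 0.35 in astrocytes, against -0.37 in CPN, -0.83 in SCPN, -0.45 in CThPN and -0.51 in Sst cells. For the effective number of subclusters it was 1.45 in Sst cells and 0.555 in astrocytes, against -0.843 in SCPN, -2.05 in CGE cells and -0.979 in OPC. Each of these types had a single subcluster at 1 of the ages, so the clustering per age fixed the lack of overlap. For the slope of log genes on log UMIs the difference was 0.0802 in astrocytes, against -0.0164 in CPN, -0.0423 in layer IV neurons and -0.0583 in Sst cells. For cells over 10000 UMIs it was 0.976 percentage points in astrocytes, against -3.49 in layer IV neurons, -12.9 in SCPN and -2.21 in CThPN. For UMIs per cell without mitochondrial ones it was 1132 in CPN, 697 in CThPN and 2163 in Sst cells, against -811 in OPC and -343.75 in astrocytes. The difference between any pair of types was not tested. Types were set against each other only through a mean of types in the same library. Of the measures in this paragraph, that was done for UMIs and genes per cell. Against the mean of the 8 types, Sst cells passed in limma for both measures and OPC for UMIs.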

How the results depend on the processing

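Of 121 alternatives to counts of types and means over types, 111 kept the direction, with counts within 1.5 times, and 4 of these were smaller by over 1.5 times. Of 395 alternatives to single types and the UMI spread, 362 kept the direction, 45 of them smaller by over 1.5 times, and 33 reversed. No alternative reversed a mitochondrial share, genes or UMIs of CPN, Sst cells or CThPN, or genes at 4000 UMIs of OPC, layer IV neurons, CPN, SCPN or Sst cells. Where values reversed, the cause was not tested, and values below are log2 P7 minus P1.

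The mean over types for UMIs turned to -0.0056 with means of cells and, among cells of 1500 genes or more, to -0.0052. With means of cells, genes of SCPN were -0.043 and UMIs of astrocytes 0.032. Among cells with at least 1500 genes, genes were -0.11 in SCPN, -0.13 in CGE cells, 0.019 in OPC and 0.27 in astrocytes, and UMIs -0.20 in CGE cells and 0.30 in astrocytes. With a mitochondrial share under 5%, genes were -0.0013 in SCPN and 0.0053 in OPC. With equal weight per subcluster, genes were -0.021 in SCPN and 0.39 in astrocytes, and UMIs of astrocytes 0.55. With COP joined, genes of OPC were 0.037. In cells with 3000 to 5000 UMIs, 5 types had more genes at P7 in place of 3, with 0.078 in layer IV neurons, -0.00083 in CGE cells, 0.19 in OPC and 0.070 in CThPN, the last against the matched value of -0.0025. At other ways of matching UMIs, CThPN gave 0.0033 at 3000 UMIs and 0.0071 without mitochondrial UMIs, and astrocytes gave 0.032 at 6000 UMIs, 0.00033 in bins of 500 UMIs and 0.0059 without mitochondrial UMIs.

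Leaving out 1 library at a time gave UMIs of -0.027 to 0.42 in CGE cells and of -0.11 to 0.037 in SCPN, the first reversed without library 4 and the second without library 5. It gave genes of -0.044 to 0.080 in SCPN, -0.16 to 0.032 in layer IV neurons and -3.2e-05 to 0.29 in CGE cells, and matched genes of -0.020 to 0.011 in CThPN. The number of types with a higher effective number of subclusters went from 2 to between 2 and 4, and was 4 with libraries pooled. Against 3 types with libraries apart for genes and 3 for UMIs, limma called 1 each higher. Averaging the P7 libraries took limma from 1 to 0 for genes, from 1 to 0 for UMIs and from 5 to 1 for matched genes. At an unadjusted limma p under 0.05 the averaged fit still held Sst cells for genes and UMIs.

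No paired analysis was possible because the P1 titles carry no replicate number and libraries were not matched to samples. With 3 and 2 libraries, changes within the spread of P1 libraries were not detectable, and the P7 OPC values rest on 107 cells.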
